A study of Mus musculus with 40 samples.

Results

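Expression of 10 genes of type 2 immunity was described in 4T1 and 66cl4 primary tumors: the epithelial alarmins Il33 and Tslp, the IL-33 receptor Il1rl1, the cytokine Il4 with the receptor chains Il4ra and Il13ra1, the transcription factor Gata3, the eotaxins Ccl11 and Ccl24, and the macrophage gene Retnla. The genes were chosen by symbol from the table of expression values, in which all 10 of 10 were found among 14318 listed genes. The rule uses no measured value, but the list was drawn up with earlier results of these data known. The study asked how chitin, given to block chitinase-like proteins, acts alone or with anti-PD-1 in 2 mouse models of triple-negative breast cancer. Wild-type female BALB/c mice, mated at 8 weeks of age, received luciferase-expressing 4T1 or 66cl4 mammary tumor cells in the milk ducts. The mice were lactating at inoculation, which followed the weaning of their pups, and the paper describes the end of milk production in the first week after it. All groups share this host, which had an intact immune system. 4T1 and 66cl4 are established mouse cell lines, and the models also differ in the number of cells that was inoculated. From 3 to 5 w post-inoculation (p.i.), mice were left untreated or received intraperitoneal injections of 1 mg chitin every 3 days, 200 µg anti-PD-1 weekly, or both. Primary tumors were collected at 5 w p.i. Values of 39 tumors were used, 19 of the 4T1 and 20 of the 66cl4 model, with 5 tumors in each of the 8 groups except untreated 4T1 with 4 (tumors 1, 2, 4 and 5).

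Type 2 immunity is the response that mammals mount against helminths, allergens and chitin, the polymer of arthropod cuticle and fungal cell walls. Stressed or damaged epithelial and stromal cells release IL-33 and TSLP, which act on innate lymphoid cells, mast cells, basophils and dendritic cells. These cells and Th2 cells, whose identity rests on GATA3, then provide IL-4, IL-5 and IL-13. IL-4 and IL-13 signal through receptors that hold IL-4Rα, together with IL-13Rα1 in the type II receptor, and activate STAT6. In macrophages this raises genes such as Retnla, which encodes RELMα, and in many tissues it raises the eotaxins, chemokines that attract eosinophils through CCR3.

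Il1rl1, which encodes ST2 and lies at chr1:40404864-40465418 on the plus strand of mm10 (Entrez 17082), separated the models without overlap. RefSeq (GRCm38.p6) gives more than 1 start for it, and the table holds 1 value for the whole gene, so that use of one start or the other cannot be read from these data. The 250 bases before 2 of its starts are shown because the letters of the GATA motif, for the factor family of Gata3, are unevenly spread over them, and those before Retnla (chr16:48842609-48844461, plus strand, Entrez 57262) and Il33 (chr19:29925113-29960718, plus strand, Entrez 77125) because of a STAT6-type motif. Capitals mark the GATA motif in Il1rl1, which is GATA preceded by A or T and followed by A or G, on either strand, and the STAT6-type motif in Retnla and Il33, which is TTC and GAA with 4 bases between them.
Il1rl1, start further upstream, chr1:40429320-40429569: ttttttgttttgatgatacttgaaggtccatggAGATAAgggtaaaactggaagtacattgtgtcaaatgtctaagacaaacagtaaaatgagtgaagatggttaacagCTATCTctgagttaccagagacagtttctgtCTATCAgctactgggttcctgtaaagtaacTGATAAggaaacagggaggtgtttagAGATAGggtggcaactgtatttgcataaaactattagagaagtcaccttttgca
Il1rl1, start further downstream, chr1:40439379-40439628: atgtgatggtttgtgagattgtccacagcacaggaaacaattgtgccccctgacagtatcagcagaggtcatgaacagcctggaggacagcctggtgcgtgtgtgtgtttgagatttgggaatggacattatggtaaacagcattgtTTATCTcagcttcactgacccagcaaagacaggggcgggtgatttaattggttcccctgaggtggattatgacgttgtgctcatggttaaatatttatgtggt
Retnla, chr16:48842359-48842608: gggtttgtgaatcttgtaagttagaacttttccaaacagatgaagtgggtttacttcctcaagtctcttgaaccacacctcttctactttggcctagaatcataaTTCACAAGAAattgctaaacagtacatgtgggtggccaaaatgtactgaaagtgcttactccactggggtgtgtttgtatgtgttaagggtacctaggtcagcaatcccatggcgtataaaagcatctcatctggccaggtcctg
Il33, first start, chr19:29924863-29925112: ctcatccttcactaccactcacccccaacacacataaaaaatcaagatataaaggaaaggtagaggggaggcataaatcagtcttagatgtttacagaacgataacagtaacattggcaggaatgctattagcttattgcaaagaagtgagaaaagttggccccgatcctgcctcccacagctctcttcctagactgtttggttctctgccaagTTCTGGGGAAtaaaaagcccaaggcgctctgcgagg
Both strands were searched in the 250 bases before and 50 bases after each start, in which the 2 Il1rl1 windows held 5 and 1 GATA motifs and all capitals fell in the part shown. Of 32851 RefSeq promoters of this length, 29.8% held a GATA motif, 6.95% the STAT6-type motif and 8.30% the general STAT motif, with 3 bases between TTC and GAA. Among the 7 of 10 members with a promoter sequence, the windows of Il4 also held each of the 3 motifs, that of Gata3 held 1 GATA motif, and those of Il4ra and Il13ra1 held none. The window of the other Il33 start (chr19:29945540-29945839) also held none of the 3 motifs. These are matches of letters, and no binding was measured.

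Between 5105898 and 14800352 reads per tumor (median 6590274) fell on the listed genes. Expression values were variance-stabilized (VST) by the authors, a log2-like scale on which a count of 0 equals 6.05, and normalized counts were recovered from them, in which differences in depth between tumors are scaled out. In bulk tumors, fewer cells of a type and less RNA per cell cannot be told apart. Marker genes of cell types differed between the models. The summed luminal epithelial markers (9 of 9 measured) ran from 14418 to 50104 normalized counts in 4T1 and from 3676 to 6427 in 66cl4 tumors, the fibroblast markers (8 of 8) from 4800.0 to 177272 and from 8069 to 18955, and the macrophage markers (8 of 8) from 4409 to 28167 and from 22512 to 41676, respectively. The fibroblast sum was made up mostly of Col1a1, Col1a2 and Col3a1 (means of 24338, 17051 and 20075 counts in 4T1). Within that list Pdgfra (865 in 4T1 and 2061 in 66cl4) and Pdgfrb (611 and 1356) went the other way, and the remaining genes were lower in 66cl4. The sum therefore does not give the number of fibroblasts. Both lines are mammary tumor cells, so that the luminal sum cannot tell tumor cells from epithelium of the host. According to the paper, cells were given into a pair of mammary glands, and more primary tumors than lungs were measured per group. Tumors of a group may therefore share a mouse, and the labels do not say which came from separate mice. The tests treat all tumors as independent, so that p-values measure the spread between these tumors and not between mice.

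The models ordered the members differently. On a scale of mean normalized counts per kb of exon (GENCODE vM21 exons merged per gene), Tslp had the highest level of the 10 genes in 4T1 tumors (704) and the lowest in 66cl4 tumors (5.18), whereas Il1rl1 had the lowest level in 4T1 (8.46) and the highest in 66cl4 (393). In 4T1, Tslp was followed by Retnla (273), Il13ra1 (271), Gata3 (233), Il4ra (229), Il33 (116), Ccl11 (110), Ccl24 (44.6) and Il4 (12.1). The mean of Retnla there rested on few tumors, since its median was 24.9 normalized counts against a mean of 164. In 66cl4, Il1rl1 was followed by Il4ra (214), Gata3 (198), Ccl24 (185), Retnla (69.4), Il33 (48.8), Il13ra1 (48.2), Il4 (8.28) and Ccl11 (6.62). Neighbours such as Gata3 and Il4ra in 4T1, or Il33 and Il13ra1 in 66cl4, differed by less than the SD between tumors.

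Of the other members, Il4 (chr11:53612460-53618665, minus strand, Entrez 16189), Il4ra (chr7:125552271-125579474, plus, 16190), Il13ra1 (chrX:36112108-36171262, plus, 16164), Gata3 (chr2:9857078-9887953, minus, 14462), Ccl11 (chr11:82057832-82062955, plus, 20292) and Ccl24 (chr5:135569935-135573123, minus, 56221) lie at these mm10 positions, and Tslp (Entrez 53603) lies on chromosome 18.

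**Figure D1:**
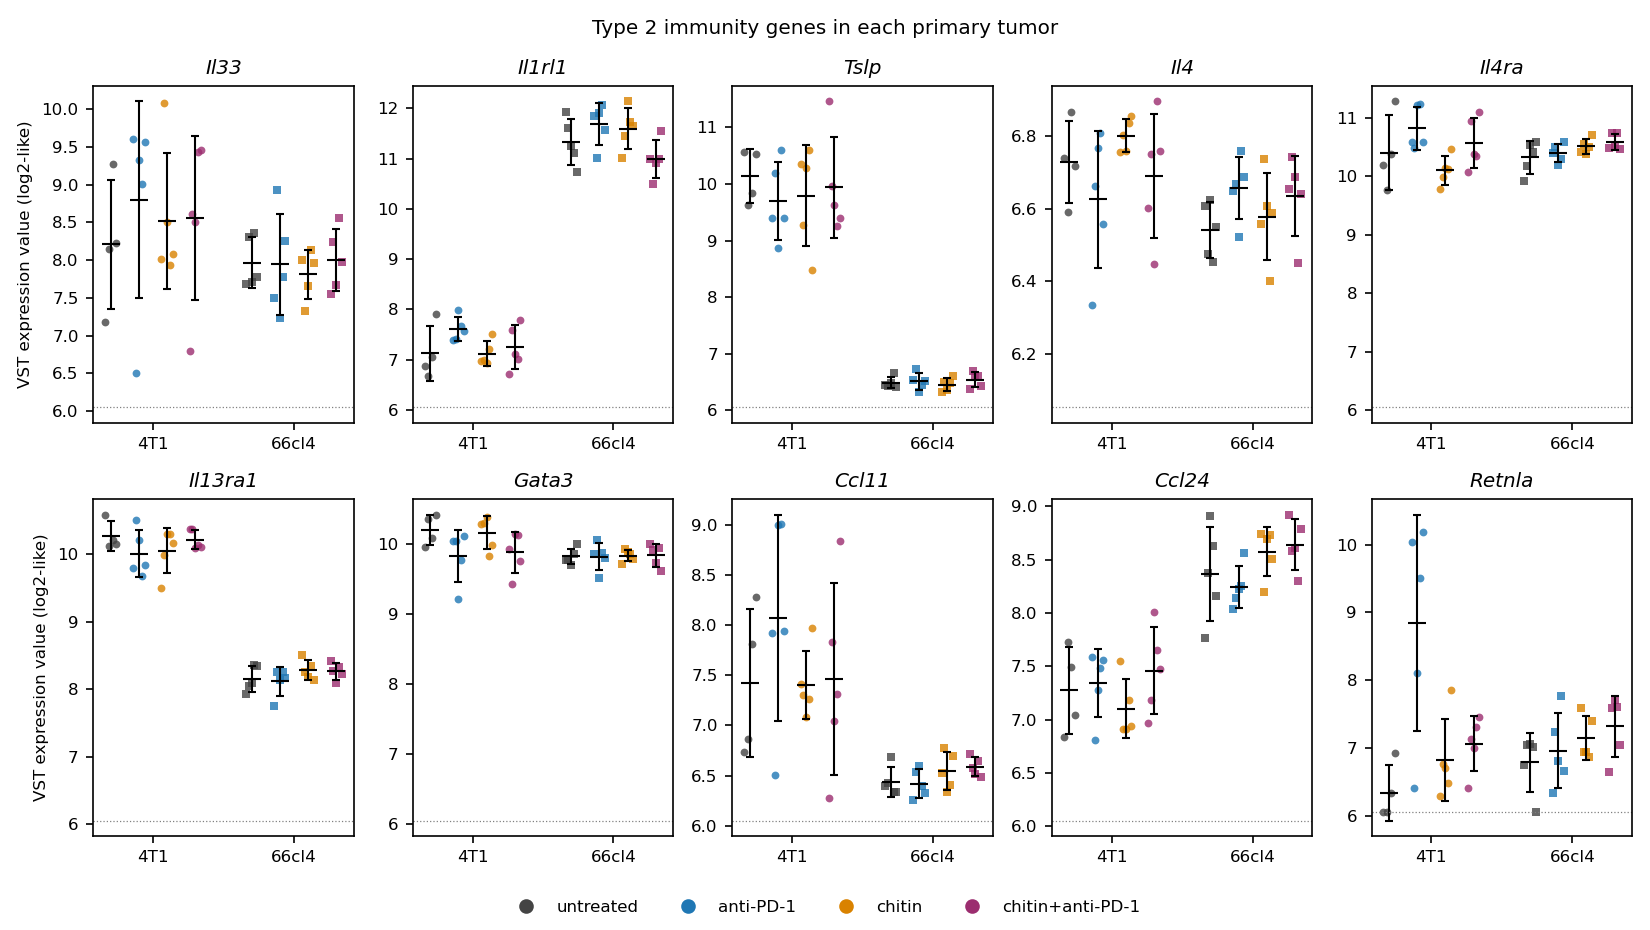
VST expression (log2-like, y axis, own range per gene) of the 10 members in each primary tumor, grouped by model (x axis) and colored by treatment, with 4T1 as circles, 66cl4 as squares and black bars for the mean ± SD of each group (n = 4 for untreated 4T1, 5 otherwise). The dotted line is the value of a count of 0 (6.05). Il1rl1, Tslp and Il13ra1 separate the models without overlap, and 4 of 5 anti-PD-1-treated 4T1 tumors stand above all other tumors for Retnla.

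Of the alarmins, TSLP is an epithelial cytokine that primes dendritic cells for Th2 responses. Tslp was present in all 4T1 tumors, with a lowest, median and highest value of 237, 784 and 2689 normalized counts, and was near the floor in 66cl4 tumors, at 2.36, 6.03 and 15.2. The models did not overlap, and the mean was 136 times higher in 4T1 (937 ± 571 SD, n = 19) than in 66cl4 (6.90 ± 3.68, n = 20). In 66cl4 tumors these values stand for 2 to 16 reads. Il33, a nuclear alarmin of stromal and epithelial cells, had a lowest, median and highest value of 6.69, 243 and 954 normalized counts in 4T1 and of 47.5, 121 and 365 in 66cl4. Its level was 2.38 times higher in 4T1 by the mean, with overlap, and 4T1 tumors were the more variable, with a coefficient of variation of 0.776 against 0.543 in 66cl4.

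Among the receptors, Il1rl1 encodes ST2, through which IL-33 acts. Its normalized counts were 12.5, 45.0 and 139 (lowest, median and highest) in 4T1 and 1319, 2779 and 4389 in 66cl4, and the models did not overlap. The mean was 46.5 times higher in 66cl4 (2712 ± 907, n = 20) than in 4T1 (58.3 ± 38.3, n = 19). Il13ra1, the chain that joins IL-4Rα in the type II receptor, also separated the models without overlap, at 594, 1004 and 1406 in 4T1 and 103, 183 and 243 in 66cl4, with a mean that was 5.62 times higher in 4T1. Il4ra, the chain common to both IL-4 receptors, lay at 738, 1201 and 2352 in 4T1 and at 834, 1307 and 1576 in 66cl4, and these ranges overlapped.

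Il4 itself was low in both models, from 2.57 to 23.4 normalized counts in 4T1 and from 3.93 to 16.3 in 66cl4, which stands for 2 to 34 reads per tumor. Gata3, which is also a factor of luminal mammary epithelium, ran from 470 to 1235 in 4T1 and from 611 to 936 in 66cl4. The 2 eotaxins were unequal in opposite directions. Ccl11 (eotaxin-1), a product of fibroblasts among others, had a lowest, median and highest value of 1.64, 63.5 and 391 in 4T1 and of 1.28, 6.53 and 16.9 in 66cl4, and 16 of 19 4T1 tumors lay above all 66cl4 tumors. Ccl24 (eotaxin-2), a product of macrophages among others, was at 18.7, 51.2 and 143 in 4T1 and at 105, 250.3 and 362 in 66cl4, and 19 of 20 66cl4 tumors lay above all 4T1 tumors. Retnla was the most variable member in 4T1, at 0, 24.9 and 1041, and ran from 0 over 32.0 to 106 in 66cl4.

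The difference between the models was tested with limma over all treatments, in 1 fit of the 8 groups, with p-values adjusted over all listed genes. Of the 10 members, 8 passed an adjusted p of 0.05, 2 of them higher and 6 lower in 66cl4, against 78.8% of all genes (38% higher and 40.8% lower), so that the share of members called was near that of all genes. The median difference was -0.20 over the members and -0.015 over all genes. Il1rl1 was higher in 66cl4 by 4.12 on the VST scale (SE 0.12, adjusted p 6.35e-26), which ranked 3rd of 14318 from the top. Tslp fell by 3.39 (SE 0.17, adjusted p 1.9e-19) and ranked 34th from the bottom. Il13ra1 fell by 1.93 (SE 0.071, adjusted p 3.95e-23) and ranked 232nd from the bottom. Ccl24 was higher by 1.16 (SE 0.099, adjusted p 9.04e-13), whereas Ccl11 fell by 1.09 (SE 0.18, adjusted p 9.9e-07). Smaller differences were found for Il33 (-0.59, SE 0.25, adjusted p 0.0286), Gata3 (-0.19, SE 0.071, adjusted p 0.0148) and Il4 (-0.11, SE 0.041, adjusted p 0.0147). Il4ra (-0.018, 95% interval -0.22 to 0.19, adjusted p 0.873) and Retnla (-0.21, -0.66 to 0.23, adjusted p 0.371) did not pass. The VST scale compresses low counts, so that the 136-fold ratio of Tslp counts appears as a difference of -3.39.

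The call of Il33 was lost with limma-voom (adjusted p 0.161), and without chitin-treated 4T1 tumor 2 (0.0533) or untreated 4T1 tumor 4 (0.0620), and the call of Il4 was lost with median centring (0.0515) and tumor weights (0.125). The models did not overlap for 3 of 10 members, against 17.9% of all genes. The summed luminal epithelial markers did not overlap between the models either. Singly, Krt8, Krt19, Elf5, Foxa1 and Prlr overlapped, and Esr1 was higher in 66cl4 (means of 141 normalized counts in 4T1 and 282 in 66cl4). The fibroblast and macrophage markers differed as given above, and the part of these cells in the differences was not tested.

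In untreated tumors alone, 6 of 10 members passed, 2 higher and 4 lower in 66cl4, against 55.8% of all genes (27.1% higher and 28.7% lower). Il1rl1 normalized counts were 22.5, 12.5, 32.8 and 126 in the 4 untreated 4T1 tumors and 3775, 2992, 2305, 2092 and 1574 in the 5 untreated 66cl4 tumors. All 5 were above all 4, with a difference of 4.20 (SE 0.25, limma adjusted p 7.82e-16). Tslp fell by 3.66 (SE 0.35, adjusted p 6.76e-11), Il13ra1 fell by 2.11 (SE 0.15, adjusted p 3.58e-14), Ccl11 fell by 0.99 (SE 0.37, adjusted p 0.0228) and Gata3 fell by 0.38 (SE 0.15, adjusted p 0.0279), and Ccl24 was higher by 1.09 (SE 0.21, adjusted p 3.82e-05). The calls of Ccl11 and Gata3 each depended on single tumors. Without untreated 4T1 tumor 5, a tumor with 191 Ccl11 counts, the adjusted p was 0.128 for Ccl11 and 0.100 for Gata3. Without untreated 4T1 tumor 4 it was 0.0724 for Ccl11, and for Gata3 it was 0.0856 without untreated 4T1 tumor 2 and 0.0578 without untreated 66cl4 tumor 3. With limma-voom it was 0.128 for Ccl11, and with tumor weights 0.0513 for Gata3. Il4 (-0.19, adjusted p 0.0583), Il33 (-0.24, adjusted p 0.712), Il4ra (-0.079, adjusted p 0.770) and Retnla (0.45, adjusted p 0.418) did not pass. These untreated tumors are also part of the comparison over all treatments.

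**Figure D2:**
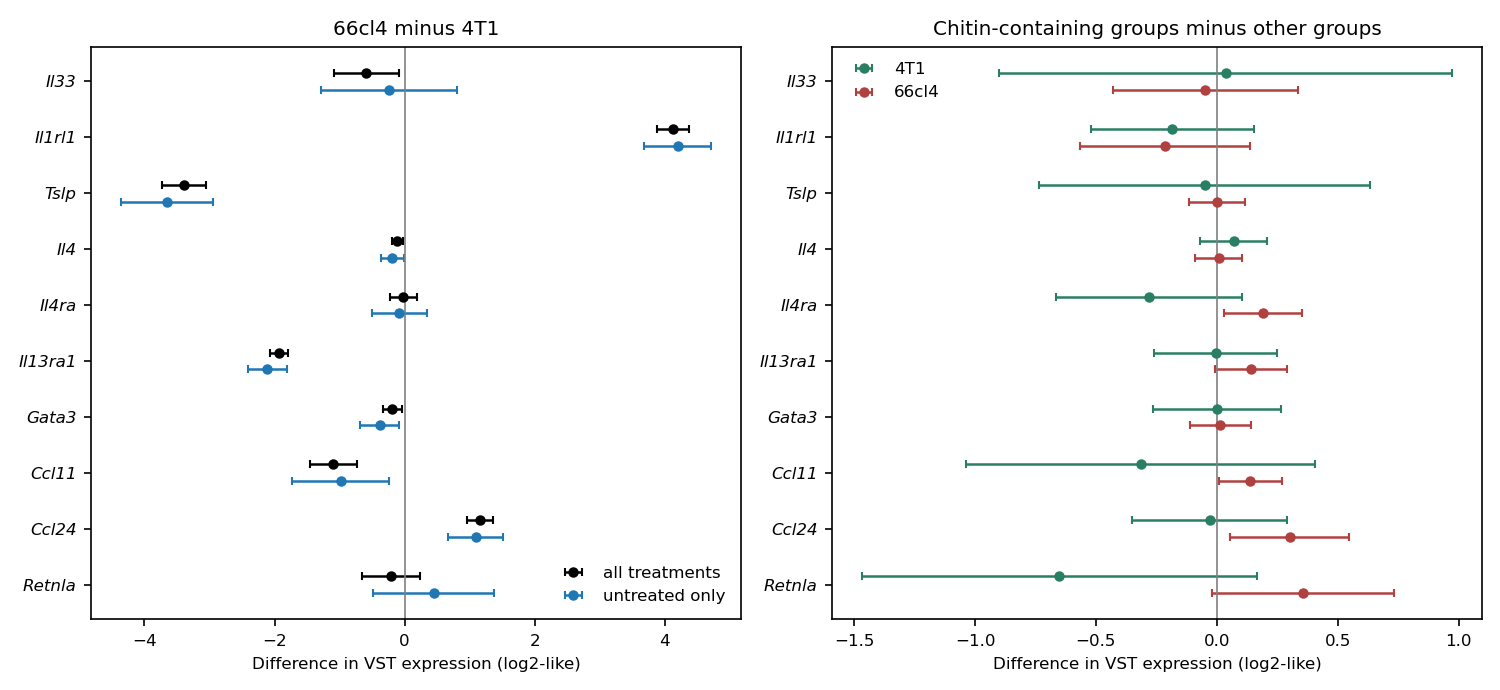
Differences in VST expression (x axis, log2-like) of the 10 members (y axis) with 95% intervals from limma, for 66cl4 minus 4T1 over all treatments (black) or in untreated tumors (blue), and for chitin-containing minus other groups in 4T1 (green) and 66cl4 (red). The x axes differ between the panels: the model differences reach from -3.66 to 4.20, and the chitin differences from -0.65 to 0.36.

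Other genes of the pathway were taken from 5 lists. Of the type 2 cytokines and alarmins outside the members, Il10 alone of 7 genes was measured, and Il5, Il13, Il25, Il9, Il31 and Tnfsf4 were not analysed here. Il10, an inhibitory cytokine, was lower in 66cl4 over all treatments (30.7 ± 30.7 against 4.79 ± 2.68 normalized counts in 4T1 and 66cl4, difference -0.47, adjusted p 7.3e-05). Of the receptors and signalling genes, 23 of 25 were measured, of which 6 were higher and 12 lower in 66cl4, with a median difference of -0.23 against -0.015 over all genes. The largest falls were those of Jak2, a kinase of many cytokine receptors (2629 ± 659 against 488 ± 44.9, difference -2.14), and Cish, a STAT5 target that restrains cytokine signals (384 ± 124 against 24.4 ± 7.37, difference -2.04). The largest rises were those of Irak4, the kinase below MyD88 in the ST2 pathway (392 ± 53.5 against 619 ± 44.9, difference 0.54), and Tyk2 (429 ± 65.8 against 548 ± 43.4, difference 0.29). Stat6, the transcription factor of the IL-4 receptor, was higher by 0.24 (SE 0.041) and Crlf2, a chain of the TSLP receptor, by 0.15 (SE 0.052). Il7r, the other chain of the TSLP receptor, fell by 0.48 (SE 0.082), and Il1rap, the partner chain of ST2, fell by 0.56 (SE 0.093). All of these passed the threshold, and Stat6, Crlf2, Il7r and Il1rap were chosen after their values were seen.

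Of 22 IL-4 and IL-13 target genes of macrophages, 19 were measured, of which 4 were higher and 10 lower in 66cl4 (median difference -0.28). Those higher included Mrc1 (CD206, 1426 ± 862 normalized counts in 4T1 against 8365 ± 1259 in 66cl4, difference 2.70) and Cd163 (431 ± 402 against 1684 ± 322, difference 2.20), both scavenger receptors of macrophages. Tgm2, a transglutaminase, fell by 1.98 (4896 ± 2391 against 1059 ± 216) and Chil3, the chitinase-like protein Ym1, by 1.06 (204 ± 522 against 1.64 ± 1.64). Retnlg, named here because it is also a neutrophil marker, was lower in 66cl4 (91.8 ± 77.6 against 7.68 ± 5.05, difference -1.01). The summed neutrophil markers, Retnlg among them, had medians of 1123 normalized counts in 4T1 and 378 in 66cl4 tumors. The paper names tumor neutrophils as prominent producers of chitinase-like proteins. The part of neutrophils in the falls on this list was not tested. Of 15 ILC2 and Th2 genes, 12 were measured, of which 2 were higher and 8 lower in 66cl4 (median difference -0.23). Maf, a factor of Th2 cells and of macrophages, was higher by 1.73 and Klrg1 by 0.34, and Arg1 fell by 0.91 and Bcl11b, a T-cell factor, by 0.51. Of 10 genes of the eotaxin axis and chitinases, 8 were measured, of which 4 were higher and 3 lower (median difference 0.0023). The chemokines Ccl9 (564 ± 354 against 3104 ± 574, difference 2.44) and Ccl7 (125 ± 65.8 against 377 ± 90.0, difference 1.11) were higher in 66cl4, and the chitinase-like gene Chil1 fell by 0.63 and Ccl5 by 0.60. These counts stand beside the 78.8% of all genes that passed, and no list was tested as a whole. Arg1 is also on the list of macrophage targets. In untreated tumors, where 55.8% of all genes passed (27.1% higher and 28.7% lower), 0 of 1 measured cytokine genes passed, and the other 4 lists had 2, 4, 2 and 3 genes higher and 10, 5, 3 and 0 lower in 66cl4, in the order given. Of the list genes named above, Il10, Stat6, Crlf2, Il7r, Chil3, Arg1, Chil1 and Ccl5 did not pass in untreated tumors.

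**Figure D3:**
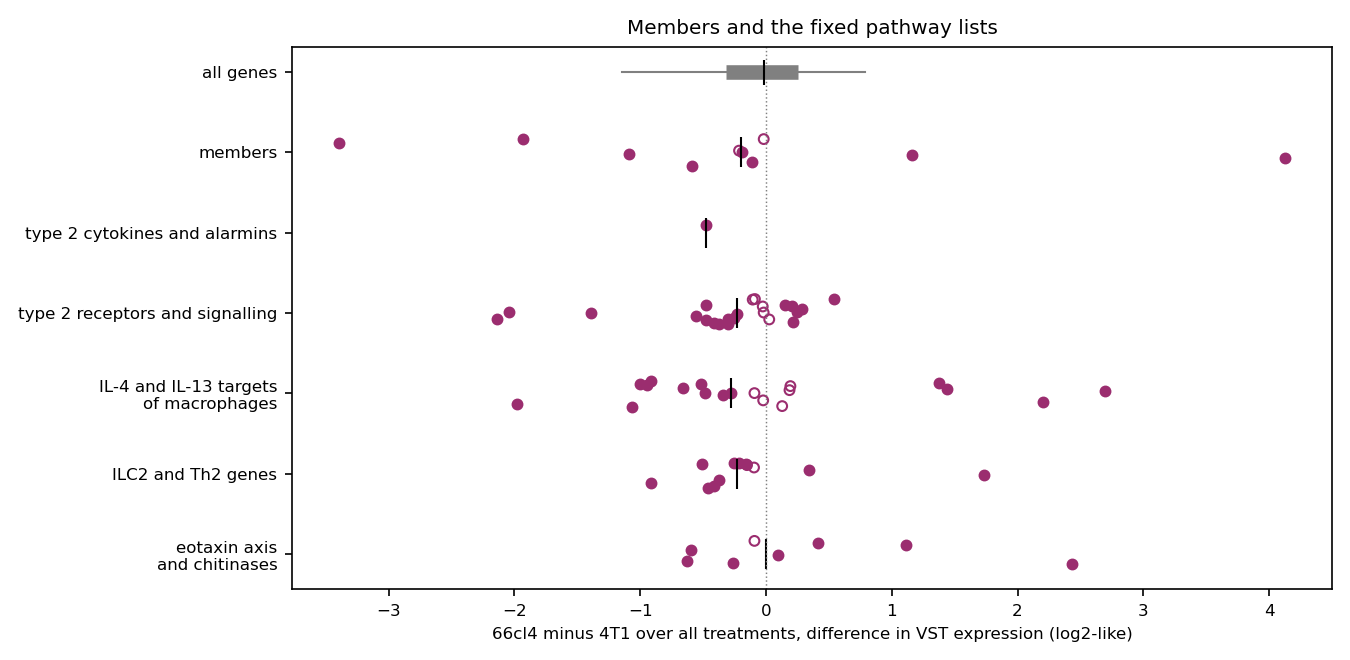
Differences of 66cl4 minus 4T1 over all treatments (x axis, VST, log2-like) for the members and the measured genes of the 5 pathway lists (rows), filled where the limma adjusted p was under 0.05, with a black tick at the median of each row. The top row gives all listed genes as a box from the 25% to the 75% quantile and a line from 5% to 95%. Il1rl1 (4.12) and Tslp (-3.39) lie outside the values of all list genes.

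Whether chitin changed these genes was tested within each model by comparing the 2 chitin-containing groups with the 2 others. In 4T1 tumors, 0 of 10 members passed, and 0% of all genes did. At an unadjusted p under 0.05, 0 members stood against 7.28% of all genes, and the median difference was -0.040 over the members and 0.0040 over all genes. The differences were 0.037 for Il33 (95% interval -0.90 to 0.97), -0.050 for Tslp (-0.73 to 0.63), -0.18 for Il1rl1 (-0.52 to 0.15), 0.069 for Il4 (-0.071 to 0.21), -0.28 for Il4ra (-0.66 to 0.10), -0.0050 for Il13ra1 (-0.26 to 0.25) and 0.0012 for Gata3 (-0.26 to 0.27). For the eotaxins and Retnla they were -0.31 for Ccl11 (-1.04 to 0.41), -0.030 for Ccl24 (-0.35 to 0.29) and -0.65 for Retnla (-1.47 to 0.16). The sign for Retnla was set by the anti-PD-1-treated tumors among the other groups, with a mean of 545 ± 456 normalized counts (SD, n = 5) against 6.91 ± 12.1 in untreated tumors (n = 4). Against untreated 4T1 tumors alone, Retnla differed by 0.48 with chitin (-0.71 to 1.67) and by 0.72 with both agents (-0.46 to 1.91), the other direction. The intervals of Il33, Tslp, Il4ra, Ccl11 and Retnla in 4T1 reached past 0.6 in size, so that changes of that size were not excluded. A p that misses the threshold does not show that the groups were alike. The genes of the 5 pathway lists had 0 calls in this and the other comparisons within a model.

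In 66cl4 tumors, 0 of 10 members and 0% of all genes passed, and 3 of 10 members had an unadjusted p under 0.05, against 15.6% of all genes. The median difference was 0.077 over the members and 0.0026 over all genes. Each of the 3 was higher in the chitin-containing groups, with overlap between the groups. Ccl24 was at 105, 213, 358, 274 and 168 normalized counts in untreated and at 148, 166, 181, 188 and 257 in anti-PD-1-treated 66cl4 tumors. It was at 306, 176, 291, 303 and 244 with chitin and at 362, 263, 269, 197 and 320.4 with both. Only untreated tumors 3 and 4 reached the median of the chitin-containing groups (280.3) or came within 10 counts of it, and the means were 273 ± 56.5 against 206 ± 73.0 (SD, n = 10 each). The difference was 0.30 (SE 0.12, 95% interval 0.056 to 0.55, limma unadjusted p 0.0187, adjusted p 0.232).

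Il4ra was at 834, 1020, 1352, 1240 and 1411 normalized counts in untreated and at 1218, 1316, 1043, 1125 and 1402 in anti-PD-1-treated 66cl4 tumors. It was at 1228, 1374, 1205, 1320 and 1543 with chitin and at 1298, 1569, 1342, 1576 and 1280 with both. The chitin-containing groups were higher by 0.19 (SE 0.078, 95% interval 0.029 to 0.35, limma unadjusted p 0.0232, adjusted p 0.250). Ccl11, which stood for 1 to 21 reads per tumor in 66cl4, had means of 9.19 ± 4.71 against 5.13 ± 3.79 normalized counts and a difference of 0.14 (SE 0.063, unadjusted p 0.0396, adjusted p 0.296). Retnla (52.9 ± 32.3 against 30.2 ± 30.6 counts, difference 0.36, adjusted p 0.349) and Il13ra1 (192 ± 26.8 against 166 ± 33.8, difference 0.14, adjusted p 0.352) had 95% intervals that included 0, of -0.018 to 0.73 and -0.0082 to 0.29. The other members differed by -0.21 (Il1rl1), -0.048 (Il33), 0.00040 (Tslp), 0.0073 (Il4) and 0.015 (Gata3), with adjusted p-values from 0.572 to 0.998.

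Read depth moved with chitin in 66cl4, from 5732583 to 8408913 reads in the untreated and anti-PD-1-treated tumors and from 5802662 to 14800352 in the chitin-containing groups. With all tumors thinned to 5105898 reads, the difference was 0.26 for Ccl24 (unadjusted p 0.0207) and 0.18 for Il4ra (0.0235), whereas that of Ccl11 was 0.046 (0.358). In 66cl4, the summed macrophage markers were 22512 to 32396 counts in untreated, 27914 to 39661 in anti-PD-1-treated, 32885 to 37583 in chitin-treated and 33759 to 41676 in combination-treated tumors. The anti-PD-1 range overlapped with each of the others. Neither a difference in these sums between treatments nor the part of macrophages in the Ccl24 values was tested.

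Whether the response to chitin differed between the models was tested as an interaction. It was past the threshold for 0 of 10 members and for 0.0978% of all genes (14 genes), and 2 members had an unadjusted p under 0.05, against 13.2% of all genes. These were Il4ra (difference 0.47, SE 0.20, 95% interval 0.062 to 0.88, limma unadjusted p 0.0254, adjusted p 0.294) and Retnla (1.01, SE 0.44, 0.12 to 1.90, unadjusted p 0.0274, adjusted p 0.302). For Retnla the adjusted p was 0.0182 without anti-PD-1-treated 4T1 tumor 2 and 0.00826 with tumor weights. The anti-PD-1-treated 4T1 tumors, high in Retnla, are part of this contrast. Against untreated tumors alone, chitin differed by 0.48 in 4T1 (95% interval -0.71 to 1.67) and by 0.36 in 66cl4 (-0.17 to 0.89), and the difference between these values was not tested.

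Each treatment was also compared with untreated tumors of its model, so that these comparisons share their control tumors. Of the 10 members, 0 passed in any of the 6 comparisons, as did 0% of all genes. At an unadjusted p under 0.05, 0 members stood against 2.77% of all genes for chitin in 4T1, 1 against 8.89% for anti-PD-1 in 4T1, and 0 against 2.56% for both in 4T1. In 66cl4 the counts were 0 against 11.4% for chitin, 0 against 5.36% for anti-PD-1 and 2 against 10.6% for both. Those 2 were Il4ra (difference 0.26, SE 0.11, unadjusted p 0.0264, adjusted p 0.404) and Retnla (0.53, SE 0.26, unadjusted p 0.04998, adjusted p 0.472).

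The members with the smallest p in the other comparisons were as follows. Chitin alone in 4T1 gave -0.22 for Il13ra1 (95% interval -0.59 to 0.15) and -0.30 for Il4ra (-0.86 to 0.26), and both treatments in 4T1 gave -0.32 for Gata3 (-0.71 to 0.063) and 0.72 for Retnla (-0.46 to 1.91). In 66cl4, chitin alone gave 0.19 for Il4ra (-0.042 to 0.42) and 0.36 for Retnla (-0.17 to 0.89), and anti-PD-1 alone gave 0.12 for Il4 (-0.022 to 0.25) and 0.36 for Il1rl1 (-0.14 to 0.85). All of these intervals included 0.

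Retnla, the gene of RELMα, a secreted product of macrophages and also of adipose tissue, was the member that stood out in anti-PD-1-treated 4T1 tumors. It was at 0, 0, 2.73 and 24.9 normalized counts in untreated 4T1 tumors and at 920.0, 4.01, 160.0, 601 and 1041 in anti-PD-1-treated ones. It was at 1.90, 16.7, 14.2, 5.91 and 118 with chitin and at 4.09, 38.9, 30.3, 54.4 and 68.8 with both. Tumors 1, 3, 4 and 5 of the anti-PD-1 group were above all other tumors of both models, and tumor 2 lay within the untreated range. The difference from untreated was 2.51 (SE 0.57, 95% interval 1.32 to 3.70, limma unadjusted p 0.000317), and the adjusted p over all genes was 0.517. The adjusted p was 0.00299 without tumor 2, 0.00210 with tumor weights and 0.0148 with both models in 1 fit, and 0.649 with limma-voom. Il1rl1 was next in this comparison (0.48, 95% interval -0.0085 to 0.97, unadjusted p 0.0537, adjusted p 0.559).

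Within the anti-PD-1-treated 4T1 group, summed markers of several other cells were, like Retnla, lowest in tumor 2. In anti-PD-1-treated 4T1 tumors 1 to 5, the summed adipocyte markers (7 of 7 measured) were 10857, 56.2, 2596, 5983 and 3923 normalized counts and the summed B-cell markers (4 of 6) were 567, 8.03, 195, 320 and 574. Untreated 4T1 tumors had adipocyte sums of 197 to 967 and B-cell sums of 8.28 to 60.3. The lactating epithelium markers (3 of 6) were 2825, 4.01, 591, 1403 and 1669 against 4.73 to 216 in untreated tumors. The macrophage markers were 23609, 10984, 24492, 28167 and 26997 against 12753 to 20867, and the T-cell markers (7 of 8) were 1434, 806, 2085, 1348 and 1653 against 322 to 1153. All 5 sums were lowest in tumor 2. Among tumors 1, 3, 4 and 5, tumor 3 had the lowest Retnla (160.0 counts) and the lowest adipocyte, B-cell and lactating epithelium sums. Its T-cell sum was the highest of the group, and its macrophage sum exceeded that of tumor 1, which had 920.0 Retnla counts. Outside the anti-PD-1 group, Retnla was highest in chitin-treated tumor 5 (118 counts), which had an adipocyte sum of 3438 and a B-cell sum of 125. Chitin-treated tumor 4 had an adipocyte sum of 4846 at 5.91 Retnla counts, and combination-treated tumor 4 had 4196 at 54.4 counts. The part of these cells in the Retnla values was not tested.

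**Figure D4:**
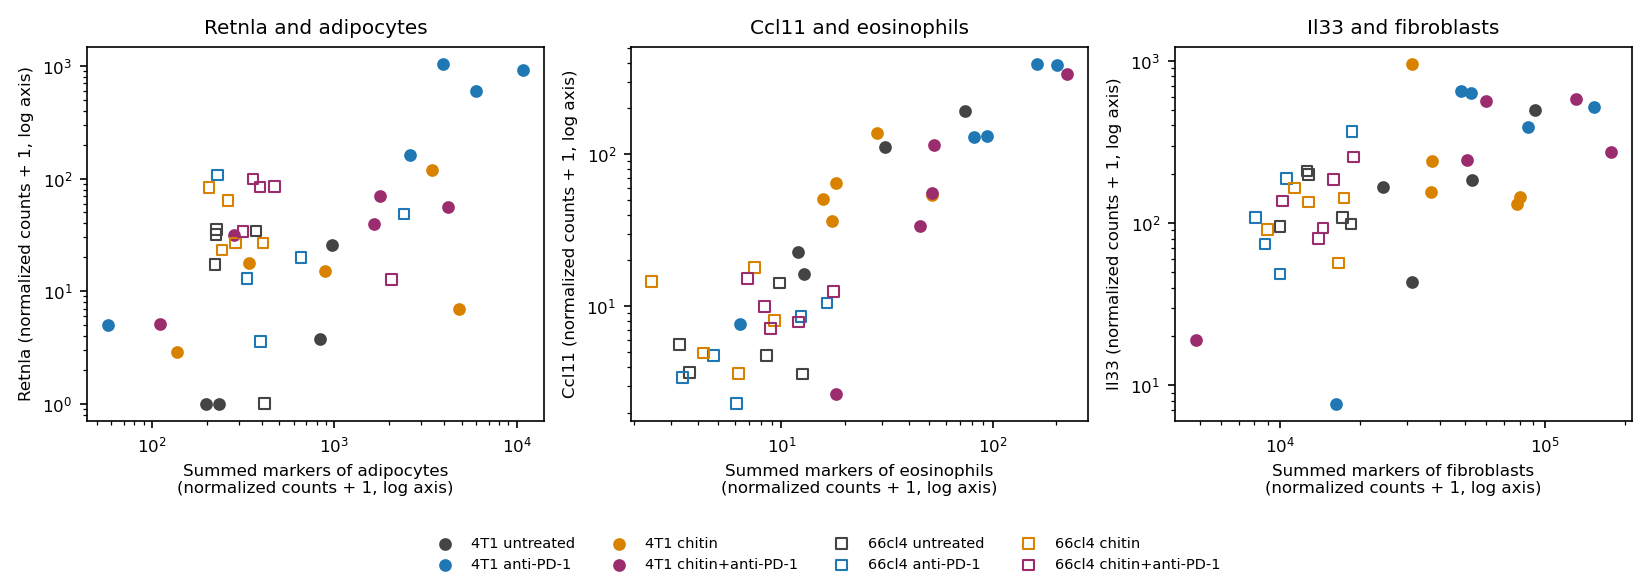
Normalized counts + 1 (log scales) of Retnla, Ccl11 and Il33 (y axes) against the summed normalized counts + 1 of adipocyte, eosinophil and fibroblast markers (x axes), 1 point per tumor, filled for 4T1 and open for 66cl4 and colored by treatment. Anti-PD-1-treated 4T1 tumor 2 has 56.2 adipocyte, 5.35 eosinophil, 4.01 Retnla, 6.69 Ccl11 and 6.69 Il33 counts, whereas the other 4 tumors of its group have 2596 to 10857 adipocyte and 160.0 to 1041 Retnla counts.

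Markers of eosinophils, the cells that the eotaxins attract, had low counts in most tumors. Of 7 eosinophil markers 3 were measured (Siglecf, Prg2 and Ccr3, and Epx was among those not analysed here), and their sum was 5.35, 44.2 and 225 normalized counts (lowest, median and highest) in 4T1 and 1.42, 6.89 and 16.6 in 66cl4. Prg2, a granule protein of eosinophils, was at 0 in 14 of 20 66cl4 tumors and in 0 of 19 4T1 tumors. The 1 measured of 5 basophil markers, Mcpt8, was at 10.9 to 103 in 4T1 and 0 to 12.9 in 66cl4. The part of these cells in the Ccl11 values was not tested.

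4 pairs of members that act together were related across the tumors of each model, with values centred on the group means and p-values adjusted over 8 relations. Only Il33 and Ccl11 in 4T1 passed (r = 0.627, permutation p 0.00403, adjusted p 0.0322, n = 19), and Spearman's rho was 0.560 (p 0.0139, adjusted p 0.111). Without the 2 tumors farthest from the median of Il33, r was 0.180, so that the relation rests on those tumors. The other 7 relations, of Il33 with Il1rl1, Il4ra with Il13ra1, and Ccl24 with Retnla in both models and of Il33 with Ccl11 in 66cl4, had r from -0.399 to 0.369 and adjusted permutation p-values from 0.319 to 0.990.

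The genes most like each member were found from the deviations from the 8 group means over 39 tumors, as a description without a test. The closest were Ccr3, the eotaxin receptor, for Ccl11 (Pearson's r 0.927, rho 0.671), Abca9 for Il33 (0.913, rho 0.894) and H2-Ob, an MHC class II gene of B cells, for Retnla (0.870, rho 0.861). Second were Smoc2 for Ccl11 (0.891), Selenop for Il33 (0.898) and Xcr1, a receptor of conventional dendritic cells, for Retnla (0.844). Il4ra was most like Rftn1 (0.819) and Nkd2 (0.814) and Gata3 most like Trps1 (0.761) and Nck2 (0.750). The r was lower for Tslp with Fbxo28 (0.702, rho 0.463) and Nmnat2 (0.695), Il13ra1 with Pdk3 (0.693) and Snx10 (0.679), Ccl24 with Sh2b3 (0.678) and Fcna (0.654), Il1rl1 with Neurl1b (0.668) and Hspb7 (0.643), and Il4 with Gdnf (0.653) and Slc33a1 (0.644). The points share library depth and cell makeup of the tumors.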

How the data were processed

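RNA of primary tumors was sequenced by the study (stranded TruSeq libraries, NovaSeq, paired reads). The authors used HISAT2 and mm10, took the strand into account in counting, described keeping genes with over 10 reads in 10% of cases, and deposited variance-stabilized values on a log2 scale, made with DESeq2. From these, whole reads were recovered for 100% of values (within 0.001 reads), with size factors and normalized counts. Every listed gene had over 10 recovered reads in at least 8 tumors, more than the described rule asks, and the paper gives a slightly different number of genes. All 39 deposited columns were mapped to tumors, 0 per-sample columns were left unused, and untreated 4T1 tumor 3 was not analysed here.

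limma 3.58.1 in R 4.3.3 (group means, trended variance, two-sided, Benjamini-Hochberg over 14318 genes, threshold 0.05) was fitted to the deposited values, per model or over all 8 groups, for 11 comparisons that partly share control tumors. Relations used 100000 permutations (scipy 1.17.1). Scripts were tested on simulated data. Alternatives were median centring, leaving out the 25% lowest genes, tumor weights, a replicate block, limma-voom on recovered reads, equal read depth, both models in 1 fit, and leaving out each tumor.

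The members were found by symbol, without a rule on measured values, and the members and lists were drawn up with earlier results of these data known. All members are named throughout, for single treatments the 2 with the smallest p, per pathway list the 2 largest rises and falls past the threshold between the models over all treatments, and per member the 2 genes of highest r. Sequences are from RefSeq (GRCm38.p6), where 7 of 10 members had a promoter. Depth was 5105898 to 14800352 reads per tumor.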

Additional observations from a re-analysis of the deposited data

Results flagged for a closer look

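In 4 of 80 groups of 4 or 5 tumors, 1 tumor stood apart from the rest by Dixon's criterion, and chance gives about 1 in 20 groups, that is 4. Il33 in anti-PD-1-treated 4T1 tumor 2 was the lowest of its group at a VST value of 6.51 (6.69 normalized counts), against 390 to 648 counts in the other 4 tumors. Il33 in chitin-treated 4T1 tumor 2 was the highest of its group at 10.08 (954 counts, others 130 to 241). Il13ra1 in anti-PD-1-treated 66cl4 tumor 1 was the lowest at 7.75 (103 counts, others 165 to 188). Ccl11 in untreated 66cl4 tumor 3 was the highest at 6.69 (13.2 counts, others 2.58 to 4.59). No member passed the test of a difference between the models in the effect of chitin.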

How the results depend on the processing

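The number of members past the threshold for anti-PD-1 in 4T1 was 0 and became 1 (Retnla) with tumor weights and 1 with both models in 1 fit, and ranged from 0 to 1 when single tumors were left out. For the difference in chitin effect it became 1 (Retnla) with tumor weights and ranged from 0 to 1, with 1 without anti-PD-1-treated 4T1 tumor 2. Without the 2 farthest tumors, r was -0.041 for Il33 and Il1rl1 in 4T1, 0.249 and -0.111 for Il4ra and Il13ra1 in 4T1 and 66cl4, 0.180 for Il33 and Ccl11 in 4T1, and -0.039 for Ccl24 and Retnla in 66cl4. At equal read depth r was 0.0084 for Il4ra and Il13ra1 in 4T1. The cause was not tested.

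Counts over all genes were 0 within each model and 14 for the difference in chitin effect. With tumor weights they were 297 and 960 (4T1, chitin-containing groups and anti-PD-1), 185 (66cl4, chitin-containing groups) and 1004 (difference), and with both models in 1 fit 58, 60 and 3 (4T1, chitin-containing groups, anti-PD-1 and both agents) and 1 (66cl4, chitin-containing groups). At equal read depth they were 6 and 9 (66cl4, chitin-containing groups, and the difference), and 8 for the difference without the lowest genes. Leaving out 1 tumor gave 0 to 269 (66cl4, chitin-containing groups, highest without untreated tumor 3), 0 to 25 (66cl4 chitin, highest without the same tumor), 0 to 3 (66cl4, both agents, highest without untreated tumor 4), 0 to 1 (4T1, chitin-containing groups), and 0 to 80 (4T1 anti-PD-1) and 0 to 677 (difference), both highest without anti-PD-1-treated 4T1 tumor 2.

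Deviations of same-numbered tumors had a median correlation of -0.017 (-0.392 to 0.447) in 4T1 and 0.026 (-0.298 to 0.539) in 66cl4. For tumors of other numbers the medians were 0.0040 (-0.568 to 0.681) and -0.014 (-0.494 to 0.525), respectively. Such correlations cannot show whether a number stands for a shared mouse or batch, and tumors were treated as unpaired in the main fits. With the replicate block the counts were 1 (4T1, both agents), 16, 2 and 7 (66cl4, chitin-containing groups, chitin and both agents) and 104 (difference), and the block changed 0 member calls.

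Of the called members, Il33, Il4, Ccl11 and Gata3 lost a call as given with their values, and Il4 in untreated tumors gained one at equal read depth (adjusted p 0.0412) and without untreated 4T1 tumor 2 (0.0311), anti-PD-1-treated 4T1 tumor 1 (0.0385), combination-treated 4T1 tumor 3 (0.0455) or 4 (0.04995), or untreated 66cl4 tumor 3 (0.0499). Retnla over all treatments gained one with tumor weights (-0.43, 0.0288) and without anti-PD-1-treated 4T1 tumor 2 (-0.37, 0.0418), and had the other sign with limma-voom (0.36, 0.783). Of 403 values of member differences under alternatives other than leaving out a tumor, 18 had the other sign, as had 104 of 1794 with 1 tumor left out, all past the threshold in neither fit, and 0 called differences changed sign. Another scaling moved the median of all genes by at most 0.029. Il4, and in 66cl4 Tslp and Ccl11, rest on few reads, which limits their precision.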
